A study of Mus musculus with 6 samples.

Results

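The insulin-like growth factor (IGF) axis was followed in mouse bone marrow stromal cells through 10 genes, namely the ligands Igf1 and Igf2, the receptors Igf1r and Igf2r, and the binding proteins Igfbp2, Igfbp3, Igfbp4, Igfbp5, Igfbp6 and Igfbp7. The genes were taken by name, through their Ensembl identifiers, and all 10 were found among the 27263 genes listed. RNA sequencing was done on primary stromal cells of C57BL/6 mice, which per the labels were sorted from marrow of the long bones as Sca-1+ CD29+ CD45- CD11b- and grown in α-MEM with 10% fetal bovine serum. One group of 3 libraries received rGCA at 50 nM for 3 days (GCA), and the other group of 3 received the buffer PBS for 3 days (PBS), with strain, sort and serum shared by both. The labels do not expand the name GCA; it is read here as grancalcin, which binds calcium and is made by myeloid cells, and rGCA as recombinant protein, from what is known of the study. The sources used here do not give the age or sex of the mice. Whether replicates were separate mice or separate wells is also missing from the labels, and the p-values below therefore reflect the spread between 3 libraries a group, which may be technical.

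IGF1 and IGF2 are secreted growth factors that act through the tyrosine kinase receptor encoded by Igf1r, which signals through IRS adaptor proteins to PI3K and AKT. The product of Igf2r, the cation-independent mannose 6-phosphate receptor, takes up IGF2 and sends it to lysosomes without such a kinase signal, and it also sorts lysosomal enzymes. The IGF-binding proteins hold the ligands outside the cell, and proteases release them. In bone, IGF1 made by stromal and osteoblast-lineage cells is known to promote matrix formation, and macrophages are known to make IGF1 as well. The serum in the medium is itself a source of IGFs, and the values below measure only the RNA of the cells.

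Among the 10 genes, Igfbp2 rose in GCA-treated cells, and Igf1 and Igf2r fell. These 3 of 10 genes passed the test described below, as did 17.9% of all tested genes, 11.5% higher in GCA and 6.43% lower. The promoters of the 3 genes are shown first for that reason. Each sequence is the RefSeq window on GRCm38.p6 of 250 bases before and 50 bases after a transcript start, written 5′ to 3′ on the strand of the gene, with capitals for the matches to any of 6 motifs. Igf1 is at chr10:87860861-87861160 on the plus strand, Igf2r at chr17:12769657-12769956 on the minus strand and the upstream promoter of Igfbp2 at chr1:72824230-72824529 on the plus strand. The RefSeq start of Igf1 lies inside the longer gene that GENCODE M21 annotates.
Igf1: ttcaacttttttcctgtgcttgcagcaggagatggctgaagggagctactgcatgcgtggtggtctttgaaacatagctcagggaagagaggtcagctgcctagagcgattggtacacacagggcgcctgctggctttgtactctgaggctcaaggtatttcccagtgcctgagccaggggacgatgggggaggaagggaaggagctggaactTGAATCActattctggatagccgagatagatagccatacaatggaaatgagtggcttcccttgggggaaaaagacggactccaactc
Igf2r: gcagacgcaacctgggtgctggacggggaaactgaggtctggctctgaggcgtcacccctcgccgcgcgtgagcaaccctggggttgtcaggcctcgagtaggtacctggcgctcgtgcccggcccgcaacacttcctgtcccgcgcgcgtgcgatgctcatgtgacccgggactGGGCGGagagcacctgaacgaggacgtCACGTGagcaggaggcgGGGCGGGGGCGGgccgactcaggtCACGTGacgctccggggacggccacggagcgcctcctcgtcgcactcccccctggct
Igfbp2: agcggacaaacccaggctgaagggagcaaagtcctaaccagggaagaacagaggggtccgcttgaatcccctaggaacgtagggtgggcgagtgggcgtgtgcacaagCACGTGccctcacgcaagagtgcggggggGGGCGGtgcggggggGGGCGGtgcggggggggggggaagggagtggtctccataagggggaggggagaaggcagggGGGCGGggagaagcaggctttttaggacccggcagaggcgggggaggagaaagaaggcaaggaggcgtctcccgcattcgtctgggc
The motifs searched on both strands were the E-box CACGTG, the GC box GGGCGG, the TATA box TATAAA, the FOXO site GTAAACA, the AP-1 site TGANTCA and the cyclic AMP response element TGACGTCA. The Igf1 window held 1 AP-1 match, 37 bases before the start, and its GC content was 52.3%, close to the median of 52.7% over all 32851 promoters. The Igf2r window held 2 E-boxes, at 48 and 7 bases before the start, and 3 GC boxes, with a GC content of 70.7%. The Igfbp2 window held 1 E-box, 142 bases before the start, and 3 GC boxes, with a GC content of 67.0%. Of all promoters, 7.15% held the E-box, 35.7% the GC box, 13.6% the TATA box, 3.65% the FOXO site, 7.81% the AP-1 site and 1.79% the cyclic AMP response element. Over the 14 RefSeq promoters of the 10 genes, the E-box was found in those of Igf2r and Igfbp2 and in no other, and the FOXO site in none. The AP-1 site was found in the Igf1 promoter and in the second, downstream promoter of Igfbp2, 39 bases before its start, and in no other. The E-box and the AP-1 site were each matched in 1 gene that fell and 1 that rose, and a link to these changes was not tested. TATA boxes were found for Igfbp4 and Igfbp6, and GC boxes also for Igf2, Igf1r and Igfbp7. A match is a run of letters in the reference, not a measured binding site.

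Expression was read from the deposited FPKM values, which scale fragment numbers to exon length and to the total of the library, at totals of 17543508 to 18645931 fragments per library. A gene was tested when its mean over the 6 libraries was at least 1 FPKM, which kept 11984 genes and all 10 of the axis, and each of the 10 also averaged over 1 FPKM in either group alone. Differences were tested with limma on log2(FPKM + 1), with Benjamini-Hochberg adjustment over all tested genes and a threshold of 0.05. All fold changes in log2 units are GCA minus PBS on that scale, which understates changes of low genes. The sort was meant to remove CD45+ and CD11b+ cells, yet Ptprc, which encodes CD45, averaged 13.4 ± 0.893 FPKM in GCA and 12.6 ± 0.586 FPKM in PBS, and Itgam, which encodes CD11b, averaged 30.5 ± 9.0 FPKM in GCA and 39.3 ± 3.35 FPKM in PBS (SD, n = 3 each). Of all tested genes, 11.5% were higher in GCA and 6.43% lower. All 20 macrophage markers were present, with 10 higher in GCA, 1 lower, the lysozyme gene Lyz2, and 9 not past the threshold. Stromal markers were present too: Col1a1, a collagen chain, averaged 1149 ± 53.8 FPKM in GCA and 1333 ± 94.6 FPKM in PBS, and of the 17 stromal markers tested none was higher, 5 were lower and 12 were not past the threshold, while Lepr, Nt5e and S100a4 averaged under 1 FPKM. Of 9 osteoblast markers tested, Sp7 and Ibsp were higher and Spp1 and Bglap2 lower, while Bglap, Dmp1 and Phex averaged under 1 FPKM. Of 4 adipocyte markers tested Lpl was lower, while Adipoq, Plin1, Lep, Cfd and Retn averaged under 1 FPKM. Of 3 neutrophil markers tested Csf3r was higher, while Ly6g, Elane and Mpo averaged under 1 FPKM and 4 were not listed. The 2 endothelial markers tested were Cdh5 and Eng, which is also a stromal marker here, and 8 others averaged under 1 FPKM. Neither passed with limma, limma-voom or at an unadjusted p under 0.05. No lymphoid marker reached the level for testing.

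The 10 genes spanned a wide range of levels, and the order was similar in both groups. Igfbp7 was the most abundant and lay above 98.7% of tested genes, and Igfbp4 came next. Igf2r and Igf1 followed, with per-library ranges that overlapped each other within GCA and within PBS. Igfbp5 and Igf2 were lower, and Igfbp2, Igf1r, Igfbp3 and Igfbp6 formed the low end. Between neighbours in this order, the ranges of Igfbp3 and Igfbp6 overlapped in PBS but not in GCA. The places of Igfbp2 and Igf1r were exchanged between the groups: Igfbp2 lay above Igf1r in every GCA library, and below it in every PBS library. FPKM is scaled here to the exon union of all annotated transcripts, 16791 bases for Igf1r and 1847 bases for Igfbp2. The order of genes at close levels, as for this pair, depends on those lengths.

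**Figure D1:**
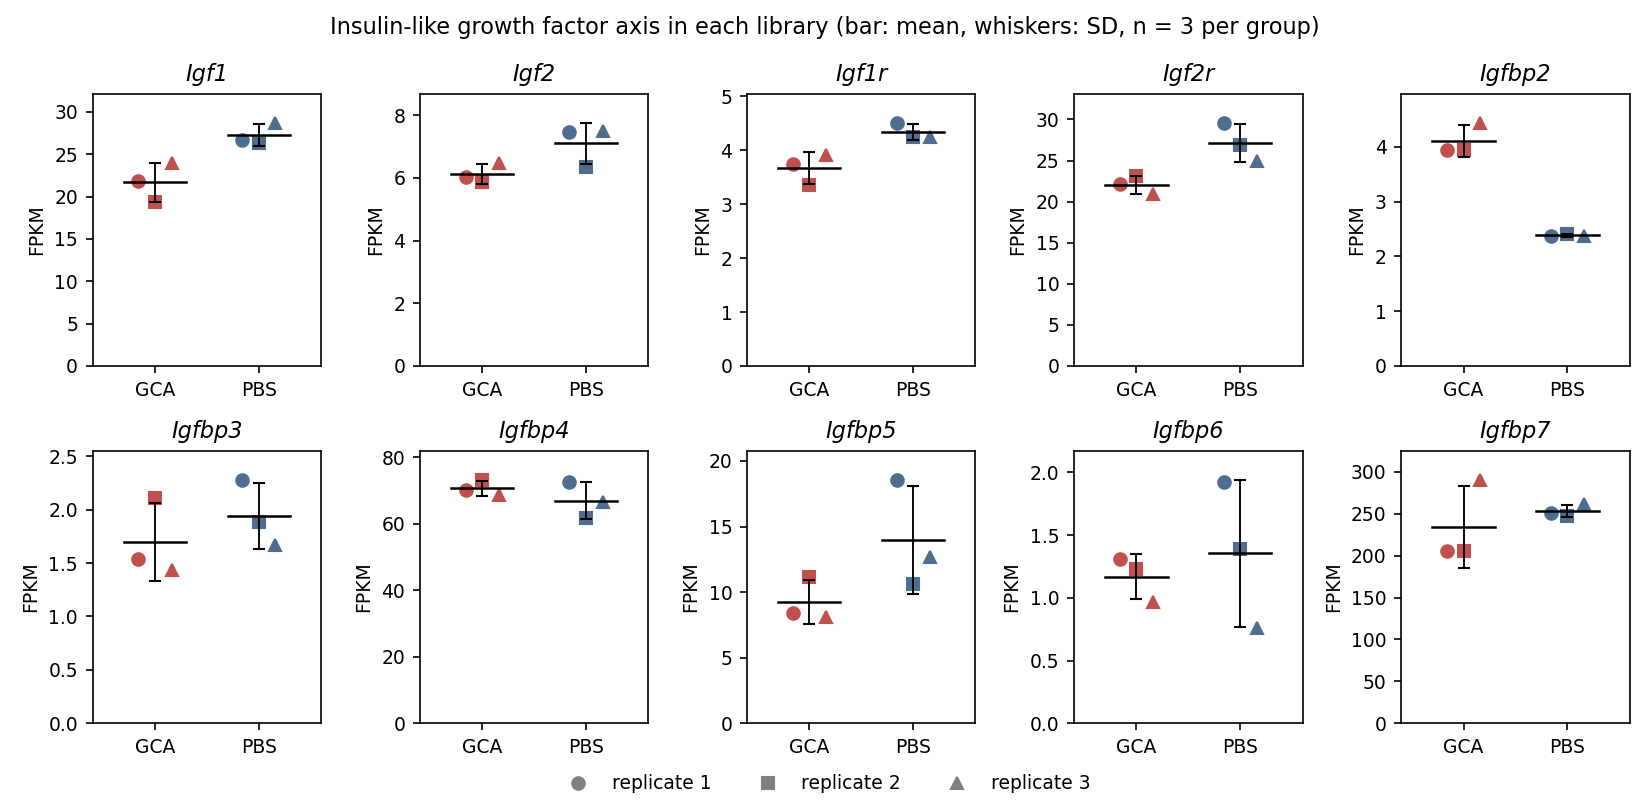
Level in FPKM (vertical axes, each from 0) of the 10 genes in 3 GCA and 3 PBS libraries, with the symbol giving the replicate number, the bar the mean and the whiskers the SD. Igfbp2 lies at 3.94 to 4.44 FPKM in GCA, above the 2.37 to 2.42 FPKM of PBS, and Igf1 and Igf2r lie lower in every GCA library than in any PBS library.

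Of the ligands, Igf1 fell and Igf2 did not pass the test. Igf1 (ENSMUSG00000020053, plus strand of chr10:87858265-87937042, GENCODE M21 on GRCm38) had 21.8, 19.3 and 24.0 FPKM in GCA libraries 1 to 3, against 26.7, 26.3 and 28.7 FPKM in PBS libraries 1 to 3. Every GCA library lay below every PBS library, with GCA 2 the lowest of the 6. The means were 21.7 ± 2.30 FPKM in GCA and 27.2 ± 1.29 FPKM in PBS (SD, n = 3 each), a log2 change of -0.32 (SE 0.0768, 95% interval -0.50 to -0.14, limma adjusted p = 0.0249). The level in FPKM fell by 20.3%. Each library held many Igf1 fragments, 3362 to 4423 in GCA and 4729 to 5070 in PBS, so counting error was small beside the spread between libraries. The call did not hold when GCA 1 (adjusted p = 0.0656), PBS 1 (0.0648), PBS 2 (0.0568) or PBS 3 (0.0856) was left out, while the change lay between -0.39 and -0.24, and it did not hold without the filter on low values (0.0962). In RNA from a mixed culture, fewer cells of a type and less RNA per cell cannot be told apart.

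Igf2 (ENSMUSG00000048583, minus strand of chr7:142650766-142666816) encodes the second ligand and is expressed from the paternal chromosome in most mouse tissues. It had 6.02, 5.88 and 6.48 FPKM in GCA, against 7.45, 6.33 and 7.51 FPKM in PBS. The groups overlapped, with PBS 2 inside the GCA range. The means were 6.12 ± 0.313 FPKM in GCA and 7.10 ± 0.662 FPKM in PBS (SD, n = 3 each), and the log2 change of -0.18 (95% interval -0.35 to -0.02) did not pass after adjustment (limma adjusted p = 0.123). H19, the maternally expressed RNA of the same imprinted domain, averaged 10.6 ± 0.305 FPKM in GCA and 10.2 ± 0.676 FPKM in PBS (limma adjusted p = 0.593).

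Taken as a sum, the ligands had 27.8, 25.2 and 30.4 FPKM in GCA and 34.2, 32.6 and 36.2 FPKM in PBS. The summed level was lower in every GCA library than in any PBS library, and most of it was Igf1. The ratio of Igf1 to Igf2 was 3.62, 3.29 and 3.70 in GCA and 3.59, 4.15 and 3.82 in PBS, and these ranges overlapped.

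Of the receptors, Igf2r fell, and Igf1r was lower in all GCA libraries without passing the test. Igf2r (ENSMUSG00000023830, minus strand of chr17:12682406-12769664) had 22.1, 23.1 and 20.9 FPKM in GCA, against 29.6, 26.9 and 24.9 FPKM in PBS. The groups did not overlap, and the PBS libraries were the more spread. The means were 22 ± 1.07 FPKM in GCA and 27.1 ± 2.35 FPKM in PBS (SD, n = 3 each), a log2 change of -0.29 (SE 0.0688, 95% interval -0.44 to -0.13, limma adjusted p = 0.0247). The level in FPKM fell by 18.8%. The call was lost without GCA 1 (adjusted p = 0.0669), GCA 3 (0.0745), PBS 1 (0.0623) or PBS 2 (0.0700), with changes between -0.34 and -0.22, and without the filter on low values (0.0925).

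Airn, the long antisense RNA that starts inside Igf2r and is known to silence its paternal copy, lies on the other strand at chr17:12741311-12860136. It had 1.45, 1.38 and 1.48 FPKM in GCA, against 1.98, 2.23 and 1.74 FPKM in PBS. Its log2 change was -0.29 and passed narrowly (SE 0.0831, limma adjusted p = 0.0487), but the adjusted p was 0.0541 to 0.150 when any 1 library was left out. With 0.1 in place of 1 added to FPKM, the log2 change was -0.43 for Airn and -0.30 for Igf2r. The sources used here do not say how strands were counted, so reads of Igf2r and Airn cannot be told apart where they overlap.

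Igf1r (ENSMUSG00000005533, plus strand of chr7:67952827-68233668), which encodes the signalling receptor, had 3.74, 3.35 and 3.92 FPKM in GCA, against 4.51, 4.25 and 4.25 FPKM in PBS. No GCA library reached the lowest PBS library. The means were 3.67 ± 0.289 FPKM in GCA and 4.34 ± 0.152 FPKM in PBS (SD, n = 3 each), with a log2 change of -0.19 (SE 0.0663, 95% interval -0.35 to -0.04) that missed the threshold (limma adjusted p = 0.0801). It passed under quantile normalization (adjusted p = 0.0458) and with limma-voom on recovered fragments (0.0177). The ratio of Igf2r to Igf1r was 5.90, 6.88 and 5.34 in GCA and 6.56, 6.33 and 5.87 in PBS, and overlapped between the groups. Insr, the insulin receptor gene, whose product forms hybrid receptors with that of Igf1r, averaged 3.53 ± 0.382 FPKM in GCA and 3.64 ± 0.125 FPKM in PBS (limma adjusted p = 0.769).

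Of the 6 binding proteins, Igfbp2 alone passed the test. Igfbp2 (ENSMUSG00000039323, plus strand of chr1:72824503-72852474) encodes a carrier of both ligands that can also bind cell-surface integrins. It had 3.94, 3.95 and 4.44 FPKM in GCA, against 2.38, 2.42 and 2.37 FPKM in PBS. Every GCA library lay well above the PBS libraries. The means were 4.11 ± 0.287 FPKM in GCA and 2.39 ± 0.0251 FPKM in PBS (SD, n = 3 each), a 1.72-fold level and a log2 change of +0.59 (SE 0.0648, 95% interval 0.44 to 0.74, limma adjusted p = 0.00111). Leaving out any 1 library kept the call, with adjusted p-values of 0.00201 to 0.00731 and changes of 0.55 to 0.62. These values rest on 130, 128 and 153 fragments in GCA and 80, 81 and 78 fragments in PBS. The 95% Poisson intervals, which cover counting error only, were 107 to 152 fragments for the lowest GCA library and 64.3 to 101 fragments for the highest PBS library, and did not overlap.

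Igfbp7 and Igfbp4 carried most binding-protein RNA. Igfbp7 (ENSMUSG00000036256, minus strand of chr5:77349240-77408041), a secreted matrix protein that binds IGFs weakly, had 206, 205 and 290.2 FPKM in GCA, against 251, 248 and 262 FPKM in PBS. GCA 1 and GCA 2 lay below all PBS libraries and GCA 3 above them. The means were 234 ± 48.9 FPKM in GCA and 254 ± 7.26 FPKM in PBS (SD, n = 3 each), and the log2 change was -0.14 (95% interval -0.46 to 0.18, limma adjusted p = 0.528). Without GCA 3 it was -0.30 and passed (adjusted p = 0.0144), so 1 library decided this result. Igfbp4 (ENSMUSG00000017493, plus strand of chr11:99041244-99054392), a carrier that the protease pappalysin-1 cleaves, had 70.2, 73.2 and 68.7 FPKM in GCA and 72.7, 61.8 and 66.6 FPKM in PBS. The groups overlapped, and the log2 change of 0.08 had a 95% interval of -0.07 to 0.23 (limma adjusted p = 0.428). With 1 library left out it ran over 0.02 (without PBS 2) to 0.14 (without PBS 1).

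Igfbp5 (ENSMUSG00000026185, minus strand of chr1:72857932-72874884) lies next to Igfbp2 on chromosome 1, on the opposite strand, and encodes a carrier that binds bone matrix. It had 8.39, 11.1 and 8.12 FPKM in GCA, against 18.6, 10.6 and 12.6 FPKM in PBS. PBS 1 stood far above the other libraries, and GCA 2 lay above PBS 2. The log2 change was -0.53, but its SE was 0.220 and its 95% interval -1.07 to 0.02 (limma adjusted p = 0.167). Without PBS 1 the change was -0.31.

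Igfbp3 (ENSMUSG00000020427, minus strand of chr11:7206086-7213923), the main carrier of IGFs in blood, had 1.54, 2.11 and 1.44 FPKM in GCA, against 2.28, 1.88 and 1.67 FPKM in PBS. The groups overlapped, and the log2 change was -0.13 (95% interval -0.40 to 0.14, limma adjusted p = 0.486). With 1 library left out it ran over -0.24 (without GCA 2) to -0.05 (without PBS 1). Igfbp6 (ENSMUSG00000023046, plus strand of chr15:102144362-102149511), a carrier that prefers IGF2, had 1.31, 1.23 and 0.965 FPKM in GCA, against 1.92, 1.39 and 0.757 FPKM in PBS. The highest and the lowest of the 6 libraries were both PBS. These values rest on 26, 24 and 20 fragments in GCA and 39, 28 and 15 in PBS, the last with a 95% Poisson interval of 8.40 to 24.7 fragments. The log2 change was -0.09 (95% interval -0.51 to 0.32, limma adjusted p = 0.765). The coefficient of variation within PBS was 43.1%, above the counting errors of 16% to 25.8% in these libraries.

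**Figure D2:**
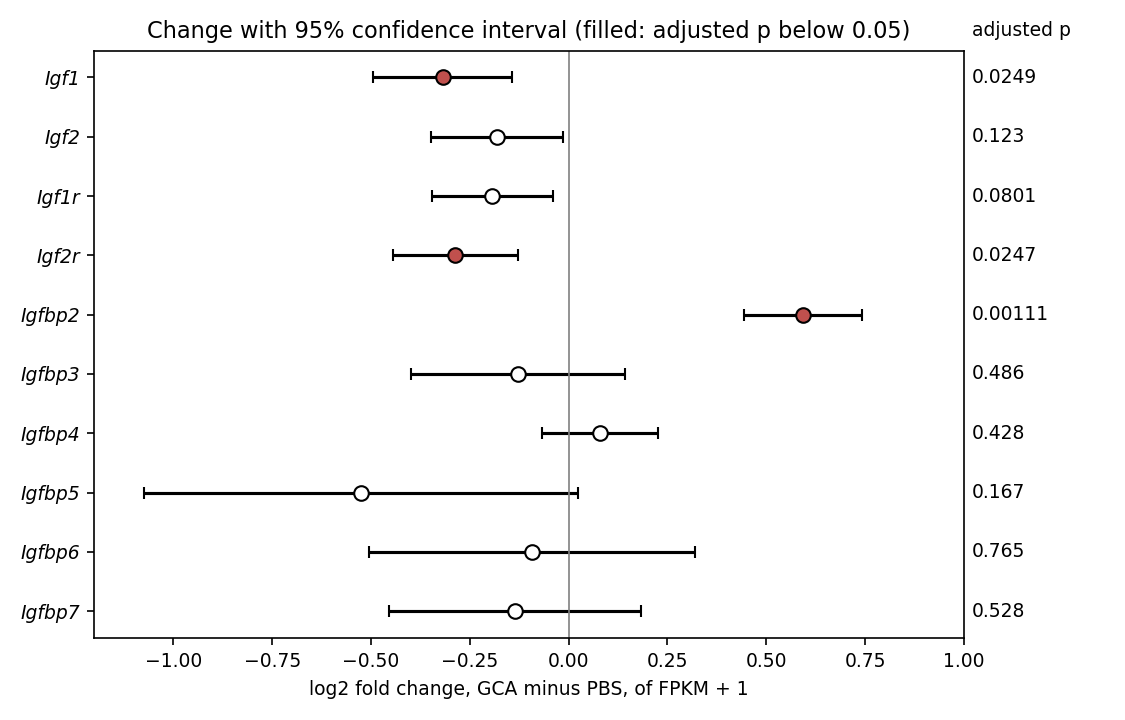
Log2 fold change, GCA minus PBS on the log2(FPKM + 1) scale, of the 10 genes with 95% intervals from limma over 3 GCA and 3 PBS libraries. Igfbp2 at +0.59 lies to the right of 0, Igf1 at -0.32 and Igf2r at -0.29 to the left, and the widest interval is that of Igfbp5.

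In all, 3 of the 10 genes were past the threshold, 1 higher and 2 lower, against 17.9% of all tested genes past it, 11.5% higher and 6.43% lower. With 10 genes, these shares rest on few calls. The groups did not overlap for 4 of the 10, Igfbp2, Igf1, Igf1r and Igf2r, against 38.5% of all tested genes, which is close to the same share. The sign of the log2 change was negative for 8 of the 10, against 48.4% of all tested genes. The median change of the 10 was -0.16, beside 0.01 over all tested genes. Over all tested genes, 1380 were higher and 771 lower. With quantile normalization the split was 1198 higher and 1027 lower.

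**Figure D3:**
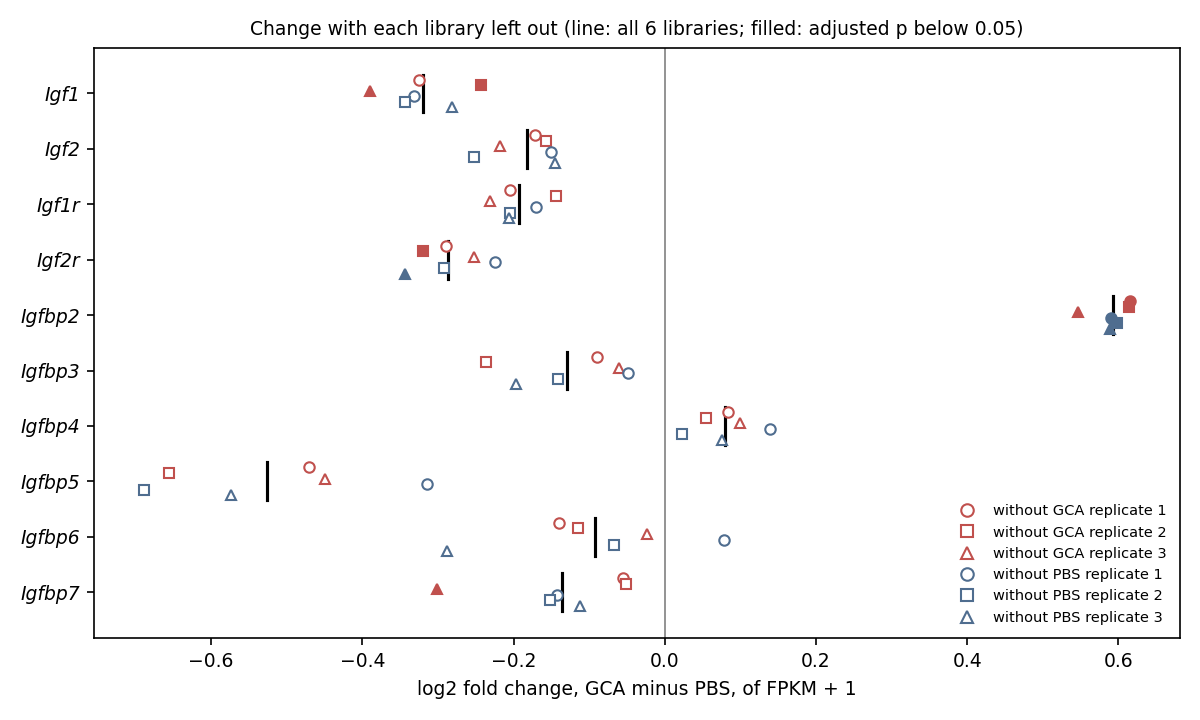
Log2 fold change, GCA minus PBS, of each of the 10 genes with all 6 libraries and with each library left out in turn, with filled points for adjusted p under 0.05. Igfbp2 stays past the threshold in all 6, between 0.55 and 0.62, while Igf1 and Igf2r each lose it in 4, and Igfbp7 passes only without GCA 3.

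The 6 binding proteins together had 291, 297 and 374 FPKM in GCA and 349, 326 and 346 FPKM in PBS. GCA 3 lay above and the other GCA libraries below the PBS libraries, as for Igfbp7. Igfbp7 and Igfbp4 made up 93.8% to 96.0% of this sum in GCA and 92.8% to 95% in PBS. Igfbp2 made up 1.29% of the sum in GCA, against 0.702% in PBS. Per 100 FPKM of binding protein there were 9.54, 8.5 and 8.14 FPKM of ligand in GCA, against 9.79, 10.0 and 10.5 FPKM in PBS. This ratio was lower in every GCA library, and GCA 1 came close to PBS 1. These sums and ratios have no test.

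**Figure D4:**
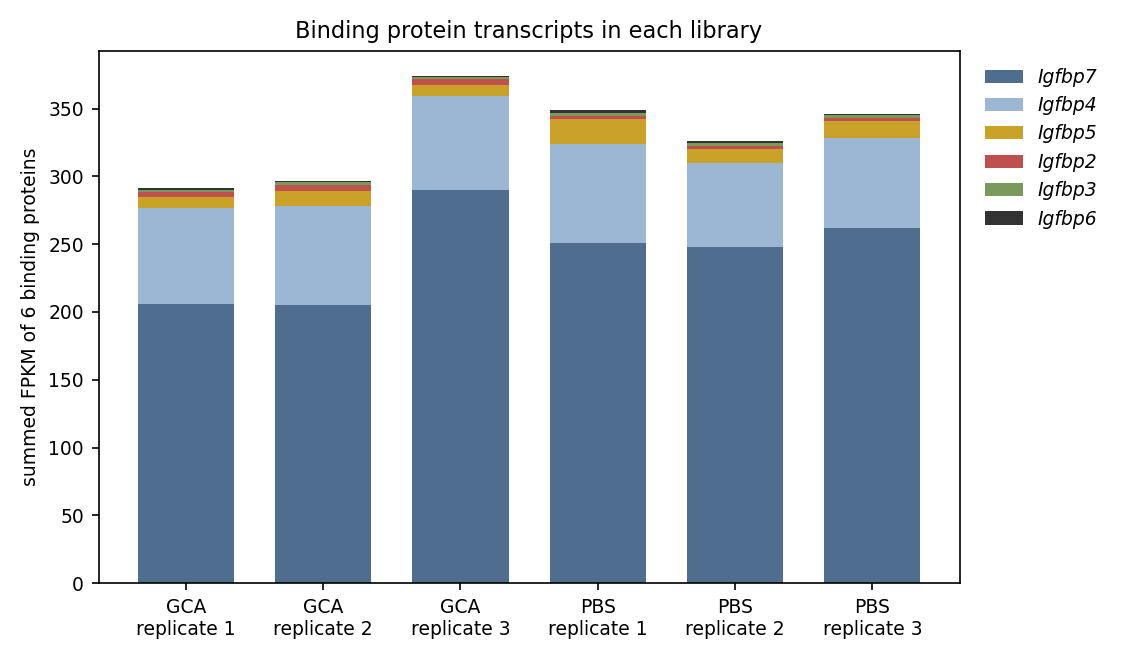
Summed FPKM of the 6 binding proteins in each GCA and PBS library, stacked by gene from 0. Igfbp7 and Igfbp4 fill at least 92.8% of every stack, and the tallest stack is that of GCA 3, at 374 FPKM.

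The profile of Igfbp2 over the 6 libraries was compared with those of 10884 tested genes by the root mean square difference of centred log2(FPKM + 1) values. Predicted and clone-named genes were left out, here and for Igf1 below. The closest was Foxm1, a transcription factor of dividing cells, at a difference of 0.0288. Foxm1 had 4.51, 4.75 and 5.09 FPKM in GCA, against 2.77, 3.01 and 2.80 FPKM in PBS, a log2 change of 0.58 (limma adjusted p = 0.00113). Arhgap19 and Sdc3, a cell-surface proteoglycan, came next at 0.0339 and 0.0349, each with a change of 0.57. Closest to Igf1 was Acta2, smooth muscle actin, at 0.0203. Acta2 had 413, 373 and 466 FPKM in GCA, against 510.0, 517 and 548 FPKM in PBS, with GCA 2 the lowest in both genes. Its log2 change was -0.34 (limma adjusted p = 0.0244), and it was lost without GCA 1 or any 1 PBS library (0.0600 to 0.0830). Cdh2, encoding N-cadherin, was next at 0.0342, with a change of -0.28 (adjusted p = 0.0386) that was lost in 5 of the 6 leave-one-out fits (0.0658 to 0.115) and without trend and robust moderation (0.0595). Pcdhb17, a protocadherin, followed at 0.0363 with -0.31 (adjusted p = 0.0627). A small difference says only that profiles are alike over these 6 libraries.

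Levels of cell type markers also differed between the groups. Summed over 20 markers, macrophage RNA was 16282 to 17559 FPKM in GCA and 18679 to 20840 FPKM in PBS, and without Lyz2 it was 8287, 7868 and 8204 FPKM in GCA against 6053, 6621 and 6620 FPKM in PBS, so the order of the groups turns on 1 gene. Lyz2 averaged 8879 ± 806 FPKM in GCA and 13518 ± 814 FPKM in PBS, a log2 change of -0.61 (limma adjusted p = 0.00241). The call held with any 1 library left out (0.00140 to 0.0156). Under quantile normalization the change was -0.11 (adjusted p = 0.438). That scaling gives equal ranks equal values, so it can shrink changes of the highest genes and cannot decide this call. Cd68, a lysosomal glycoprotein of macrophages, averaged 944 ± 105 FPKM in GCA and 614 ± 13.4 FPKM in PBS (limma adjusted p = 0.00221), while Csf1r, the receptor of their growth factor, averaged 160 ± 6.17 FPKM in GCA and 153 ± 2.80 FPKM in PBS (adjusted p = 0.382). Adgre1, which encodes F4/80, had 256, 420 and 224 FPKM in GCA and 352, 382 and 330.5 FPKM in PBS, with GCA 2 apart from the other GCA libraries. Summed stromal markers were 3496 to 3756 FPKM in GCA and 4017 to 4247 FPKM in PBS, lower in every GCA library. Col1a1 was the largest part of this sum, at means of 1149 FPKM in GCA and 1333 FPKM in PBS. Of the 17 stromal markers tested, 10 had a negative log2 change. Pdgfrb, a stromal receptor, fell to 22 ± 1.21 FPKM in GCA, against 29.3 ± 2.70 FPKM in PBS (limma adjusted p = 0.00847), Pdgfra averaged 9.05 ± 0.349 FPKM in GCA and 9.58 ± 0.798 FPKM in PBS (0.487), and Ly6a, which encodes Sca-1, averaged 324 ± 33.2 FPKM in GCA and 284 ± 41.4 FPKM in PBS (0.283). The summed osteoblast markers were 3783 to 4173 FPKM in GCA and 6144 to 6889 FPKM in PBS. The gene with the largest part of this sum in both groups was Spp1, a secreted bone matrix protein that macrophages also make. Spp1 averaged 1655 ± 155 FPKM in GCA and 3889 ± 511 FPKM in PBS (log2 change -1.23, limma adjusted p = 0.000518). Lpl, lipoprotein lipase, averaged 5.67 ± 0.745 FPKM in GCA and 16 ± 0.878 FPKM in PBS (-1.36, adjusted p = 0.00025), while the summed adipocyte and neutrophil markers overlapped between the groups. Sp7, an osteoblast transcription factor, averaged 2.71 ± 0.234 FPKM in GCA and 1.39 ± 0.340 FPKM in PBS (0.64, adjusted p = 0.00661). The call of Ibsp was lost without GCA 2, PBS 1 or PBS 3 (0.0550 to 0.0772), that of Csf3r without GCA 1, GCA 2, PBS 2 or PBS 3 (0.0707 to 0.0870), and that of Bglap2, which has near-identical copies, without any 1 library (0.0557 to 0.115). The part of these cell types in the changes of Igf1, Igf2r and Igfbp2 was not tested.

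Genes around the axis were read from 6 lists with 93 tested genes in all. Of these, 10 rose and 12 fell, or 23.7%, beside 17.9% of all tested genes, 11.5% higher and 6.43% lower. Among 11 tested genes that set how much IGF is free of its binding proteins, none rose, 4 fell and 7 did not pass, with a median change of -0.10. Neither an unadjusted p under 0.05 nor limma-voom gave a higher gene there. Pappa encodes pappalysin-1, the protease that cleaves IGFBP4, and had 14.0, 14.9 and 15.0 FPKM in GCA, against 19.5, 17.1 and 19.7 FPKM in PBS, with no overlap (log2 change -0.34, limma adjusted p = 0.0103). Its substrate gene Igfbp4 did not pass the test, as given above. Fn1, the matrix protein fibronectin, fell to 359 ± 15.2 FPKM in GCA, against 487 ± 34.7 FPKM in PBS (log2 change -0.44, adjusted p = 0.00321). Mmp2, a matrix protease, fell to 125 ± 2.77 FPKM in GCA, against 150 ± 10.5 FPKM in PBS (adjusted p = 0.0179), and lost the call without GCA 1 (0.0649) or GCA 3 (0.0513). Plat, tissue plasminogen activator, fell to 1.34 ± 0.159 FPKM in GCA, against 1.90 ± 0.173 FPKM in PBS (adjusted p = 0.0420), and lost it without any 1 library (0.0529 to 0.133).

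Of 11 tested genes that act on the transcription or RNA of Igf1 and Igf2, such as the growth hormone receptor, its JAK-STAT pathway and the IGF2 mRNA-binding proteins, none passed with limma, and the median change was 0.01. At an unadjusted p under 0.05, 3 of them were higher and 1 lower, and limma-voom on recovered fragments called 1 higher and 1 lower. Of 14 tested receptor partners and adaptors, 2 rose, 2 fell and 10 did not pass, with a median of -0.09. Over all tested genes 17.9% passed, 11.5% higher and 6.43% lower. Grb2, an adaptor to the Ras pathway, rose to 70.8 ± 1.73 FPKM in GCA, against 55.7 ± 2.42 FPKM in PBS (log2 change 0.34, limma adjusted p = 0.00305). Ptpn1, a phosphatase that acts on insulin and IGF1 receptors, rose to 42.5 ± 3.14 FPKM in GCA, against 32.4 ± 0.633 FPKM in PBS (0.38, adjusted p = 0.00435). Itgav, the integrin αV chain, fell to 13.1 ± 0.506 FPKM in GCA, against 17.7 ± 0.604 FPKM in PBS (-0.41, adjusted p = 0.00179). Nedd4, a ubiquitin ligase, fell to 83.7 ± 4.14 FPKM in GCA, against 96.2 ± 2.49 FPKM in PBS (-0.20, adjusted p = 0.0298), and kept the call only when GCA 3 was the library left out (0.0602 to 0.0929 otherwise), and lost it without trend and robust moderation (0.0509). The main adaptors were not past the threshold: Irs1 averaged 4.57 ± 0.346 FPKM in GCA and 4.86 ± 0.200 FPKM in PBS (adjusted p = 0.466), and Irs2 averaged 4.05 ± 0.296 FPKM in GCA and 4.58 ± 0.227 FPKM in PBS (adjusted p = 0.173).

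Of 26 tested genes of PI3K, AKT and mTOR signalling, 1 rose, 4 fell and 21 did not pass, with a median of -0.04. The share past the threshold over all tested genes was 17.9%, 11.5% higher and 6.43% lower. Pik3cb, a catalytic subunit of PI3K, had 3.08, 3.38 and 3.35 FPKM in GCA, against 4.47, 4.55 and 4.75 FPKM in PBS (log2 change -0.39, limma adjusted p = 0.0043). Pik3r3, a regulatory subunit, fell to 6.48 ± 0.812 FPKM in GCA, against 8.63 ± 0.235 FPKM in PBS (adjusted p = 0.0179), and lost the call without PBS 2 (0.0635) or PBS 3 (0.0566). Eif4ebp1, the translation repressor that mTOR phosphorylates, fell to 36.8 ± 0.847 FPKM in GCA, against 45.3 ± 1.89 FPKM in PBS (-0.29, adjusted p = 0.00582). Akt1s1, an mTOR inhibitor that AKT phosphorylates, fell to 26.7 ± 0.567 FPKM in GCA, against 31.6 ± 0.517 FPKM in PBS (-0.24, adjusted p = 0.00847). Pik3cd, the leukocyte PI3K subunit, was the gene that rose, to 20.2 ± 1.84 FPKM in GCA, against 16.7 ± 0.813 FPKM in PBS (adjusted p = 0.0393), and it kept the call only when GCA 3 was the library left out (0.0633 to 0.127 otherwise). It was also lost under quantile normalization (0.0538), under median centring (0.0537) and without trend and robust moderation (0.0601). None of these values measures phosphorylation, the level at which the pathway is switched.

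Of 17 tested FOXO factors and known FOXO targets, which AKT signalling represses, 3 rose, 2 fell and 12 did not pass, with a median of -0.04. Beside this, 17.9% of all tested genes passed, 11.5% higher and 6.43% lower. Sesn1, a stress-induced inhibitor of mTORC1, had 27.0, 27.6 and 27.5 FPKM in GCA, against 18.7, 19.4 and 19.7 FPKM in PBS (log2 change 0.49, limma adjusted p = 0.000522). Pik3ip1, a membrane inhibitor of PI3K, had 9.40, 8.59 and 10.9 FPKM in GCA, against 5.16, 5.04 and 5.58 FPKM in PBS (0.76, adjusted p = 0.0011). Bcl6, a transcriptional repressor, fell to 3.53 ± 0.345 FPKM in GCA, against 5.99 ± 0.422 FPKM in PBS (-0.62, adjusted p = 0.00162), and Gadd45a, a stress-response gene, fell to 2.50 ± 0.506 FPKM in GCA, against 4.75 ± 0.135 FPKM in PBS (-0.73, adjusted p = 0.0033). Called genes of this list lay in both directions, and FOXO activity was not tested. Txnip, the thioredoxin inhibitor, rose to 35.8 ± 4.89 FPKM in GCA, against 26.7 ± 1.71 FPKM in PBS (adjusted p = 0.0283), but not without GCA 3 or any 1 PBS library (0.0544 to 0.0940).

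Of 15 tested genes that make, sort or carry the mannose 6-phosphate tag read by the Igf2r product, 4 rose and none fell. Of all tested genes, 11.5% rose and 6.43% fell. The other 11 of the list were not past the threshold, and its median change was 0.08. No gene of this list was lower at an unadjusted p under 0.05 or with limma-voom. Igf2r itself fell, as given above. Ap1b1, a subunit of the AP-1 adaptor of clathrin vesicles, had 63.8, 64.9 and 65.2 FPKM in GCA, against 41.8, 45.9 and 45.9 FPKM in PBS (log2 change 0.53, limma adjusted p = 0.000629). Nagpa, the uncovering enzyme that exposes the tag, had 31.0, 29.6 and 30.8 FPKM in GCA, against 23.5, 23.6 and 22.7 FPKM in PBS (0.37, adjusted p = 0.00146). In both genes the groups lay far apart beside the spread within them. Gga1, an adaptor that binds the receptor tail, rose to 34.8 ± 0.270 FPKM in GCA, against 28.4 ± 1.52 FPKM in PBS (0.29, adjusted p = 0.00772). Plin3, a lipid droplet protein first described as a partner of the receptor tail, rose to 50.1 ± 2.88 FPKM in GCA, against 43.2 ± 1.71 FPKM in PBS (0.21, adjusted p = 0.0376), and kept the call only when GCA 2 was the library left out (0.0765 to 0.12 otherwise) and lost it under quantile normalization (0.0753) and without trend and robust moderation (0.0611).

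**Figure D5:**
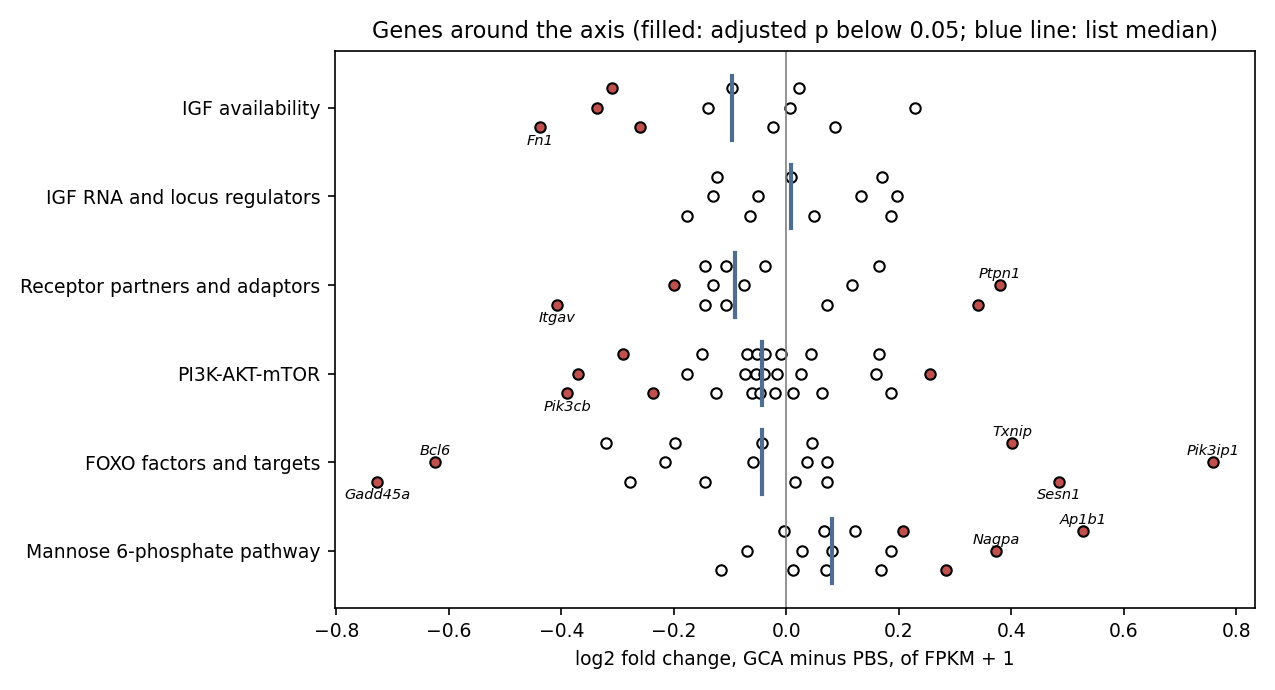
Log2 fold change, GCA minus PBS on the log2(FPKM + 1) scale, of the tested genes of the 6 lists around the IGF axis, 1 point per gene with its height within a list set for legibility, filled when the limma adjusted p is under 0.05, with a blue line at the median of each list. Filled points lie on both sides of 0 in 3 lists, only below 0 among the IGF availability genes and only above 0 among the mannose 6-phosphate genes.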

How the data were processed

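Transcript levels were measured by paired-end RNA sequencing in 3 GCA and 3 PBS libraries. The authors deposited 1 value per Ensembl gene and library. Neither headers nor labels name the unit, and the values deposited by the authors were read as FPKM: multiplied by GENCODE M21 exon-union lengths and a library total, 91.0% were whole fragments within 0.02. All 10 genes were so recovered, Igf2r only at a length of 9438 bases in place of 9308. Per the submitters' processing notes, Bowtie 0.12.2, mm8 and mm9 were named; the counter, annotation and strand handling are not stated in the sources used here. Coordinates are GENCODE M21 on GRCm38, joined by Ensembl identifier (27204 of 27263 matched).

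limma 3.58.1 (R 4.3.3, trend and robust moderation) tested log2(FPKM + 1), pseudocount 1, treatment only, two-sided, for the 11984 genes averaging 1 FPKM or more, and was checked on simulated data. The 10 genes, the 6 pathway lists and the 7 marker lists were chosen with earlier results of these data known. Named were all 10 genes, up to 4 called genes per pathway list with the smallest p, key adaptors, some markers and the 3 most similar profiles; Pik3cd, Txnip, H19, Airn and the called osteoblast, adipocyte and neutrophil markers were named after their values were seen. Alternatives were the replicate block, scaling, filter, pseudocount, threshold, limma without trend, limma-voom and leaving out each library. Tables and plots used Python 3.11.15, numpy 2.4.6, pandas 2.3.3 and scipy 1.17.1. No 2 libraries agreed within sampling noise.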

Additional observations from a re-analysis of the deposited data

How the results depend on the processing

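The direction of Igf1, Igf2r and Igfbp2 was the same under every alternative that tested them; Igfbp2 is under the 5 FPKM filter. Without a filter on low values 1075 genes passed in place of 2151, and 1 of the 10 genes, Igfbp2; among the called genes named in the report, Mmp2, Plat, Nedd4, Pik3r3, Pik3cd, Txnip, Plin3, Acta2, Cdh2, Airn, Bglap2, Ibsp and Csf3r also lost the call. At an adjusted p of 0.01 there were 837 genes, 1 of the 10 and 14 pathway genes. Leaving out 1 library gave 1232 to 2088 genes, 1 to 3 of the 10 and 16 to 23 pathway genes. Over the same fits, the log2 change of Igfbp6 ranged over -0.29 to 0.08, and it was positive, 0.079, without PBS 1. limma-voom on recovered fragments called 2665 genes and 4 of the 10, with Igf1r added, but not Ibsp (0.0503) or Bglap2 (0.203). The ratio of summed binding proteins, GCA over PBS, was 0.943, and 0.865 to 0.986 with 1 library left out.

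The labels give both groups replicate numbers 1 to 3. Deviations of same-numbered libraries correlated at 0.0820, 0.0287 and 0.0676 across genes, and those of differently numbered GCA and PBS libraries at -0.0815 to 0.0231. Whether libraries of the same number share an animal, culture or batch cannot be told from these values. With the replicate number as a block, 2094 genes, 3 of the 10 and 22 pathway genes passed, and Airn (adjusted p = 0.0782), Plat (0.0679), Plin3 (0.058) and Bglap2 (0.0554) did not. Without trend and robust moderation Nedd4, Pik3cd, Plin3, Cdh2 and Bglap2 lost their calls. Counting error was highest for Igfbp6, with 15 to 39 fragments per library.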

Other observations

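The PBS libraries agreed on Igfbp2 more closely than counting alone usually gives: 80, 81 and 78 fragments, each with a counting error of about 11.1% to 11.3%, while the SD of the PBS values was 0.0251 FPKM around 2.39 FPKM. The spread within PBS therefore understates the error of that mean, and the moderated spread of limma, shared over genes, sets the SE of 0.0648.

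The antisense transcript Igf1os, which overlaps the start of Igf1, was at 0.387, 0.219 and 0.226 FPKM in GCA and 0.126, 0.190 and 0.280 FPKM in PBS, under the level for testing. Polr2b, whose end meets that of Igfbp7, was at 19.4, 18.9 and 19.6 FPKM in GCA and 19.7, 20.3 and 20.6 FPKM in PBS (limma adjusted p = 0.361), without the high value in GCA 3 that Igfbp7 had.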
